A study of Sinibotia superciliaris with 2 samples.

Results

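Skin of the loach Sinibotia superciliaris was examined for the RNA of genes of the Wnt, Notch, bone morphogenetic protein (BMP) and transforming growth factor beta (TGF-beta), and Hedgehog signalling pathways. Black skin and yellow skin were taken from 6 untreated wild adults of 6.25 ± 0.30 g and 8.75 ± 0.20 cm. What ± denotes is not given in the labels, nor whether the RNA of the 6 fish was pooled. Each colour is represented by 1 library (35386871 reads in black and 38323075 in yellow skin), which leaves every difference without a check by replicates, and the values compare these libraries only. Genes are named by the stem of their best Swiss-Prot match, a similarity that is no proof of orthology and may merge near-identical copies. Members were all stems that begin with one of the names in a fixed list, such as WNT, FZD, NOTC, JAG, BMP, TGFR, SMAD or GLI. There were 55 such genes among 4058 annotated ones, made of 95 of 5675 annotated unigenes (the gene identifiers of the assembly). Of the 55, 47 belong to the 4 pathways. The other 8 are not ligands, receptors or transducers of these pathways and are given apart. The annotation covers 4.55% of all 124650 unigenes, and it holds no entry that begins with DKK, LRP6, CTNB1, TF7L, LEF1, GDF or RSPO, so these were not analysed here.

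These pathways are signals between neighbouring cells that are used throughout the formation and renewal of vertebrate skin. Wnt ligands bind frizzled receptors and steady beta-catenin, BMP and TGF-beta ligands act through receptor kinases and SMAD proteins, Hedgehog ligands release Smoothened from Patched, and Notch is a receptor cleaved after contact with a Delta or Jagged ligand on the next cell. Wnt signals also promote pigment cell fates in the neural crest, and in zebrafish contact between xanthophores and melanophores through Delta and Notch takes part in keeping stripes apart.

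Most of the signalling genes differed by less than 1.5-fold between black and yellow skin. The frizzled receptors FZD1 and FZD7A and the Wnt antagonist SFRP1 were at least 1.5-fold higher in black skin here and with 3 other library scalings. For FZD1 the difference came from 1 of its 2 unigenes. Levels are given in RPM, the reads of a gene per 1000000 reads of its library. They are not corrected for transcript length, so they are compared between libraries and never between genes. Of the 55 genes, 50 averaged 1 RPM or more across the libraries and are called measured. The log2 ratio of black over yellow skin, on the log2(RPM + 1) scale that understates differences of low genes, had a median of 0.23 over the 50 members and 0.21 over all 3644 measured genes. With the TMM scaling of edgeR the median of all genes was 0.03 and that of the members 0.05, so ratios are best read against that of all genes, a black over yellow RPM ratio of 1.17. At least 2-fold apart on this scale was 1 member, SFRP1, higher in black skin, where 0.960% of all measured genes were called, 0.823% on the black side and 0.137% on the yellow side. At 1.5-fold on the same scale 7 of 50 members were apart against 8.23% of all genes. Of these, 6 (12.0%) were higher in black skin against 6.81% of all genes, and 1 was higher in yellow skin against 1.43%. This split depends on the scaling. With TMM, and with library totals without the 2 or the 100 most abundant unigenes, 3 members (FZD1, FZD7A and SFRP1) were 1.5-fold higher in black and 2 (DVL2 and SMOC2) in yellow skin. Of all genes 2.77%, 3.42% and 3.73% were then called on the black side, in that order, and 2.69%, 2.72% and 3.17% on the yellow side. With log2 ratios taken from the median of all genes the split was 2 and 2, where 5.41% of all genes were called. FZD7A then fell short of 1.5-fold, at 0.57. Ratios of RPM carry 95% intervals for which the mates of a pair count as 1, and these cover counting error and nothing else. For 33 of the 50 members the interval held the ratio of all genes. It lay wholly above it for 7 members (14.0%, against 19.0% of all genes) and wholly below it for 10 (20.0%, against 20.0%). In pieces of skin, fewer cells of a type and less RNA per cell cannot be told apart.

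**Figure D1:**
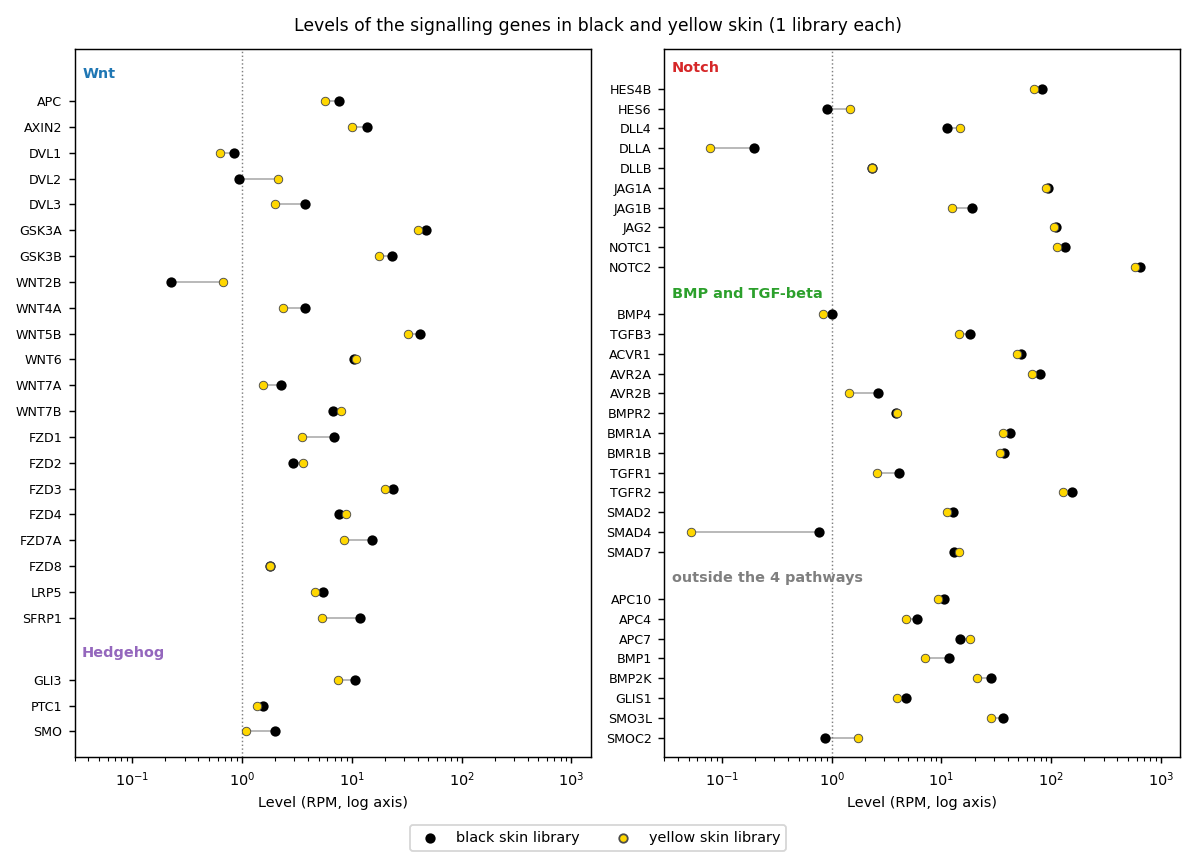
Levels in RPM (log axis) of all 55 genes in the black skin library (black points) and the yellow skin library (yellow points), 1 library each, with a dotted line at 1 RPM. The points of most genes lie close together, and the gap is widest for SMAD4, which has only 27 black and 2 yellow reads. Among measured genes SFRP1, FZD1, DVL3, AVR2B, SMO and FZD7A lie apart with black skin higher and DVL2 and SMOC2 with yellow skin higher.

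The Wnt ligands did not share a direction. WNT5B, a ligand best known for signalling without beta-catenin, was at 41.7 RPM in black skin and 32.3 in yellow, a ratio of 1.29 (1.16 to 1.44). WNT4A was at 3.78 and 2.37 RPM, a ratio of 1.59 (1.08 to 2.38). Both lay on the black side of equal levels, and neither interval cleared the ratio of all genes. WNT7B, a ligand of epithelia, was at 6.78 RPM in black skin and 7.98 in yellow, a ratio of 1.18 in favour of yellow skin (0.921 to 1.51), and its interval lay on the yellow side of the ratio of all genes. WNT7A, its close relative, leaned the other way at 2.29 and 1.56 RPM, with an interval of the black over yellow ratio of 0.889 to 2.43. WNT2B was under the minimum with 8 black and 26 yellow reads.

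WNT6, another epithelial ligand, had almost equal summed levels of 10.5 RPM in black skin and 10.9 in yellow, but its sum joins 2 unigenes that went opposite ways. The unigene c97076_g1, whose closest protein in the non-redundant database is a zebrafish Wnt-6-like protein, was at 5.20 RPM in black skin and 2.53 in yellow, a ratio of 2.05 (1.44 to 2.97). The unigene c106488_g1, closest to zebrafish Wnt-6, was at 5.34 and 8.37 RPM, a ratio of 1.57 in favour of yellow skin (1.21 to 2.04). The intervals lie on opposite sides of equal levels. Both unigenes carry a predicted signal peptide and the wnt domain over similar stretches of 360 and 350 codons.

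Among the proteins that meet Wnt ligands outside the cell and at its surface, the antagonist SFRP1 and the receptors FZD1 and FZD7A were higher in black skin. SFRP1, a secreted protein that binds Wnt through its own frizzled domain, was at 11.9 RPM in black skin and 5.37 in yellow, a ratio of 2.21 (1.74 to 2.82). Its log2 ratio of 1.01 was just past 2-fold, and it was 0.85 with TMM scaling. FZD7A, a frizzled receptor, was at 15.4 and 8.58 RPM, a ratio of 1.80 (1.48 to 2.19). Its main unigene, c108352_g1, had a ratio of 1.99 (1.60 to 2.47), while the second, c100157_g1, was at 1.38 RPM in black skin and 1.51 in yellow. FZD1, a further frizzled receptor, was at 6.95 and 3.49 RPM, a ratio of 1.99 (1.46 to 2.72), and that difference came from 1 of its 2 unigenes. The unigene c94548_g2, with the ligand-binding Fz domain, was at 3.90 RPM in black skin and 0.965 in yellow, a ratio of 4.04 (2.39 to 7.16). The unigene c94548_g1 of the same assembly component, a stretch of 122 codons, was at 3.05 and 2.53 RPM with an interval of 0.803 to 1.82.

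The other frizzled receptors stayed near the ratio of all genes or on its yellow side. FZD3 was at 23.5 RPM in black skin and 20.1 in yellow, a ratio of 1.17 that equals that of all genes. FZD4 was at 7.65 and 8.89 RPM, and its interval of 0.682 to 1.08 lay below the ratio of all genes. FZD2 (2.94 and 3.60 RPM) and FZD8 (1.81 and 1.80 RPM, summed over 4 unigenes of at most 25 reads per library) had intervals that hold both equal levels and the ratio of all genes. LRP5, the co-receptor of the frizzled proteins, was at 5.42 and 4.64 RPM, again at a ratio of 1.17.

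Inside the cell, 5 of 6 measured Wnt components lay above the median of all genes, but their intervals overlapped it except for DVL3 and DVL2. AXIN2, a scaffold of the complex that destroys beta-catenin and itself a feedback target of the pathway, was at 13.7 RPM in black skin and 10.0 in yellow, a ratio of 1.37 (1.13 to 1.66). APC, a second scaffold of that complex, was at 7.71 and 5.74 RPM, a ratio of 1.34 (1.04 to 1.74). The kinases that mark beta-catenin for destruction had ratios of 1.31 (1.13 to 1.51) for GSK3B, at 23.0 and 17.6 RPM, and 1.19 (1.08 to 1.32) for GSK3A, at 47.6 and 40.0 RPM. These 4 genes sat close together. The dishevelled proteins, which relay the signal from frizzled receptors, split. DVL3 was at 3.76 RPM in black skin and 2.01 in yellow, a ratio of 1.87 (1.24 to 2.86), and DVL2 at 0.932 and 2.11 RPM, a ratio of 2.27 in favour of yellow skin (1.25 to 4.29). The DVL2 unigene rests on a BLASTX E-value of 3e-13 and its BLASTP match is DVL3. With genes joined by BLASTP match DVL3 had a log2 ratio of 0.15 in place of 0.66, and DVL2 had no value, as with a stricter E-value. DVL3 also fell short of 1.5-fold with TMM, at 0.53, and with the other totals, at 0.56 and 0.58. DVL1 was under the minimum with 30 black and 24 yellow reads. Over all 19 measured Wnt members the median log2 ratio was 0.36, beside 0.21 for all genes. It was 0.18 beside 0.03 with TMM, 0.26 beside 0.21 with genes joined by BLASTP match, and 0.25 beside 0.20 without a minimum. At 1.5-fold on the log2(RPM + 1) scale 4 genes were higher in black and 1 in yellow skin. Of all genes 6.81% and 1.43% were called on these sides. By their intervals 4 of the 19 (21.1%, against 19.0% of all genes) lay above the ratio of all genes. Below it lay 3 (15.8%, against 20.0%).

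**Figure D2:**
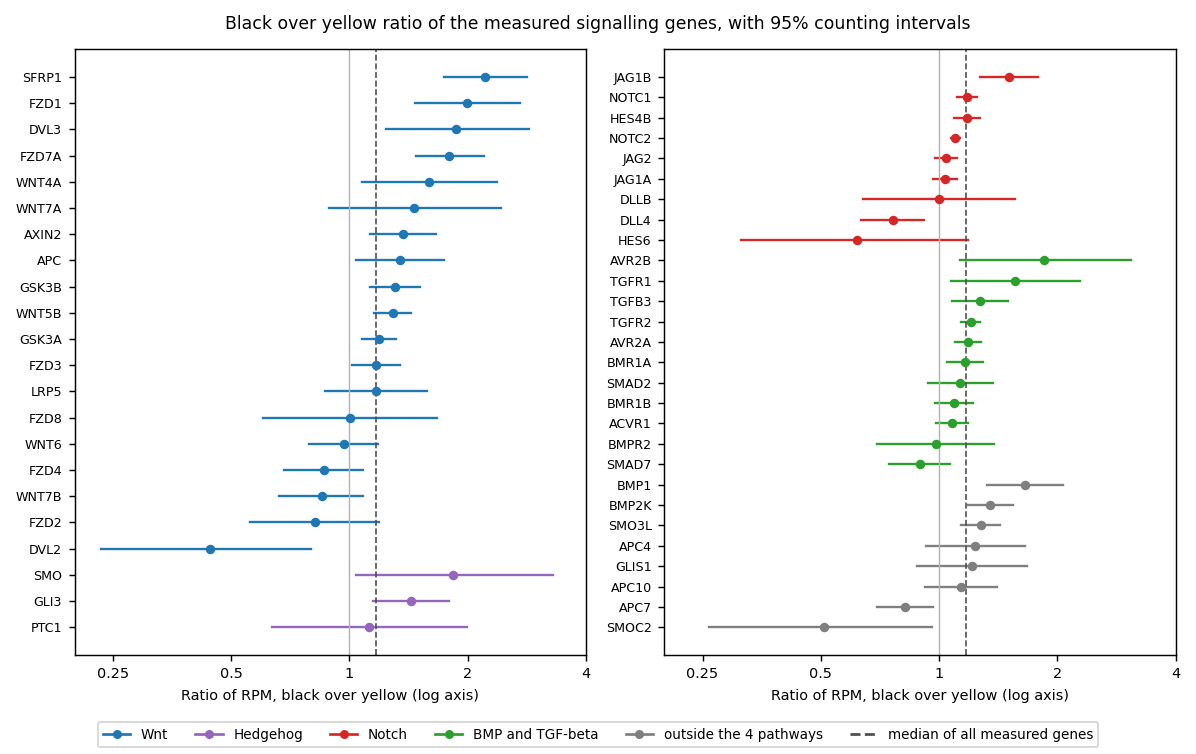
Black over yellow ratio of RPM (log axis) of the 50 measured genes, sorted within each pathway, with lines for 95% counting intervals. The dashed line is the ratio of all measured genes, 1.17, and the grey line marks equal levels. SFRP1, FZD1, DVL3, FZD7A, JAG1B, BMP1 and BMP2K lie wholly right of the dashed line.

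Notch genes differed little in size between the colours, and several lay to the yellow side of all genes. By their intervals 4 of the 9 measured members (44.4%, against 20.0% of all genes) lay below the ratio of all genes, namely DLL4, JAG1A, JAG2 and NOTC2. For 1 (11.1%, against 19.0%), JAG1B, it lay above. Intervals narrow with reads, and the share of all genes joins all depths, so these shares are not like with like. NOTC2 had 22586 black and 22269 yellow reads, JAG2 3915 and 4074, and JAG1A 3311 and 3464. On the log2(RPM + 1) scale none of the 9 measured members was 1.5-fold apart, where 8.23% of all genes were called. The median log2 ratio of the 9 was 0.06, beside 0.21 for all genes. With TMM it was -0.13 beside 0.03, and at a minimum of 5 RPM 0.14 over 7 members beside 0.21. The receptor NOTC1 was at 133 RPM in black skin and 113 in yellow, a ratio of 1.18 (1.11 to 1.25), which holds that of all genes. NOTC2 was at 638 and 581 RPM, a ratio of 1.10 (1.07 to 1.13). The largest share of NOTC2, 76.1%, came from the unigene c110317_g1, whose closest zebrafish protein is Notch 3, at 480 and 448 RPM.

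The ligands of Notch lay on both sides of all genes. JAG1A was at 93.5 RPM in black skin and 90.3 in yellow, a ratio of 1.04 (0.967 to 1.11), and JAG2 at 111 and 106 RPM, a ratio of 1.04 (0.978 to 1.11). Those ratios, like that of NOTC2, turned to the yellow side with TMM scaling. JAG1B was higher in black skin at 18.8 and 12.5 RPM, a ratio of 1.5 (1.27 to 1.78). Its unigene holds 323 codons from the ligand's front end and, like the JAG2 unigene, is closest to a zebrafish Jagged-2-like protein. DLL4, a Delta ligand known from the endothelium of vessels, was at 11.1 RPM in black skin and 14.6 in yellow, a ratio of 1.31 in favour of yellow skin (1.09 to 1.58). The vessel markers CADH5 and VGFR2 also had yellow over black ratios above equal levels, 1.46 (1.19 to 1.80) and 1.08 (0.951 to 1.23), and their part in the DLL4 value was not tested. DLLB was at 2.34 and 2.35 RPM, and DLLA was under the minimum with 7 black and 3 yellow reads.

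The HES proteins, repressors at the end of the Notch pathway, followed no common direction. HES4B was at 81.5 RPM in black skin and 69.3 in yellow, a ratio of 1.18 (1.09 to 1.27) that holds that of all genes. HES6, a relative that counters other HES proteins, was at 0.904 and 1.46 RPM, from 32 and 56 reads, with an interval of 0.313 to 1.18.

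BMP and TGF-beta members sat at the level of all genes. Their median log2 ratio was 0.22 over 11 measured genes. On the log2(RPM + 1) scale 1 gene, AVR2B, was at least 1.5-fold higher in black skin, where 6.81% of all genes were called. The ligand TGFB3 was at 18.3 RPM in black skin and 14.4 in yellow, a ratio of 1.27 (1.08 to 1.5). BMP4, a ligand of early skin and appendage patterning, was just under the minimum at 1.02 and 0.835 RPM (36 and 32 reads).

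All 8 receptors of this pathway had intervals that held the ratio of all genes. AVR2B, an activin receptor of type II, was at 2.66 RPM in black skin and 1.43 in yellow, a ratio of 1.85 (1.13 to 3.08) from 94 and 55 reads. Its log2 ratio of 0.59 was just past 1.5-fold and fell short of it with TMM (0.46), with the other totals (0.50 and 0.53) and for its most abundant unigene (0.34). TGFR1, the type I receptor of TGF-beta, was at 4.07 and 2.61 RPM, a ratio of 1.56 (1.07 to 2.28). Both are low genes with wide intervals. The deeply covered receptors lay closer to that of all genes. TGFR2, the type II receptor of TGF-beta, was at 153 and 128 RPM, a ratio of 1.20 (1.14 to 1.27), and AVR2A at 78.9 and 66.6 RPM, a ratio of 1.18 (1.10 to 1.28). The type I receptors of BMP were at 53.0 and 49.2 RPM for ACVR1, 42.0 and 36.0 for BMR1A and 37.0 and 34.0 for BMR1B. The type II receptor BMPR2 was at 3.84 and 3.91 RPM.

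The SMAD proteins carry the signal to the nucleus. SMAD2, which TGF-beta receptors activate, was at 12.8 RPM in black skin and 11.3 in yellow, a ratio of 1.13 (0.936 to 1.37). SMAD7, an inhibitory SMAD that dampens the pathway, was at 13.0 and 14.6 RPM, and its interval of 0.747 to 1.07 lay below the ratio of all genes. SMAD4, the partner shared by both branches, was represented by a fragment of 150 codons under the minimum, with 27 black and 2 yellow reads, a ratio of 14.6 (2.21 to 620). Its BLASTX E-value was 3e-20, its BLASTP match was SMAD4 as well, and the width of the interval comes from these few reads.

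The 3 Hedgehog members were all on the black side of equal levels, as were 2927 of all 3644 measured genes. GLI3 and SMO lay above the median of all genes and PTC1 below it. Few reads lay behind 2 of these members. GLI3, a transcription factor that mostly represses Hedgehog targets, was at 10.8 RPM in black skin and 7.51 in yellow, a ratio of 1.43 (1.15 to 1.79). SMO, the signal transducer Smoothened, was at 2.01 and 1.10 RPM, a ratio of 1.83 (1.04 to 3.31) from 71 and 42 reads. PTC1, the receptor Patched and itself a target of the pathway, was at 1.55 and 1.38 RPM from 55 and 53 reads, and its log2 ratio of 0.10 turned negative with TMM scaling. All 3 intervals held the ratio of all genes.

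The 8 genes that the name rule caught but that are no ligands, receptors or transducers of the 4 pathways were 3 subunits of the anaphase-promoting complex (APC4, APC7 and APC10), SMO3L (a small ubiquitin-like modifier), SMOC2 (a matrix protein), GLIS1 (a zinc finger protein), BMP2K (a kinase) and BMP1. BMP1 is a protease that trims procollagens and cleaves the BMP antagonist chordin. It was at 11.8 RPM in black skin and 7.12 in yellow, a ratio of 1.65 (1.33 to 2.07), and its log2 ratio was 0.65. With TMM it was 0.49 and with the other totals 0.51 and 0.50, short of 1.5-fold. BMP2K was at 28.5 and 21.2 RPM, a ratio of 1.35 (1.18 to 1.54). On the other side, APC7 was at 14.8 and 18.1 RPM, a ratio of 1.22 in favour of yellow skin (1.04 to 1.44), and SMOC2 at 0.876 and 1.72 RPM, one of 1.97 (1.05 to 3.86) from 31 and 66 reads. APC4, APC10, GLIS1 and SMO3L had ratios from 1.14 to 1.27 with intervals that held that of all genes. Without these 8 genes the median log2 ratio of the measured members was 0.22.

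Several genes joined unigenes with different ratios. Of the 95 member unigenes 68 were measured. On the log2(RPM + 1) scale 2 (2.94%), of FZD1 and SFRP1, were at least 2-fold higher in black skin, against 0.783% of all 31795 measured unigenes. None was 2-fold higher in yellow skin, against 0.302%. At 1.5-fold on this scale 8 (11.8%) were higher in black skin against 6.95% of all measured unigenes. The 1 that was higher in yellow skin (1.47%, against 2.25%) was that of DVL2. Of the 25 genes with several unigenes, 6 held a pair with intervals that did not overlap, and 2 of these, WNT6 and NOTC1, held unigenes on opposite sides of equal levels. The same was not counted over all genes, so these counts have no share to be read against. In NOTC1, c99811_g1 had a ratio of 1.92 in favour of black skin (1.11 to 3.40) and c101611_g1 a ratio of 1.67 in favour of yellow skin (1.08 to 2.62), but both are minor, and c104442_g1 supplied 88.9% of its level with a ratio of 1.22 (1.14 to 1.29).

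The BMP receptor BMR1A and the TGF-beta receptor TGFR2 also held unigenes with separate intervals. The unigenes of BMR1A with the ligand-binding domain were c109153_g4 and c106774_g2. The first was at 9.94 RPM in black skin and 5.76 in yellow, and the second at 7.8 and 4.54 RPM. They had ratios of 1.72 (1.35 to 2.21) and 1.72 (1.3 to 2.27). The unigene c109153_g5, with the kinase domain, was at 24.2 and 25.7 RPM, a ratio of 0.943 (0.827 to 1.08). In TGFR2 the short unigene c109938_g3, with the domain outside the cell over 219 codons, was at 61.9 and 42.5 RPM, a ratio of 1.45 (1.33 to 1.59). The longer c102631_g1 of 561 codons, which holds the same domain, was at 90.5 and 84.0 RPM, a ratio of 1.08 (1.0 to 1.16). Whether such unigenes are copies of a gene, splice forms or broken pieces was not tested.

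**Figure D3:**
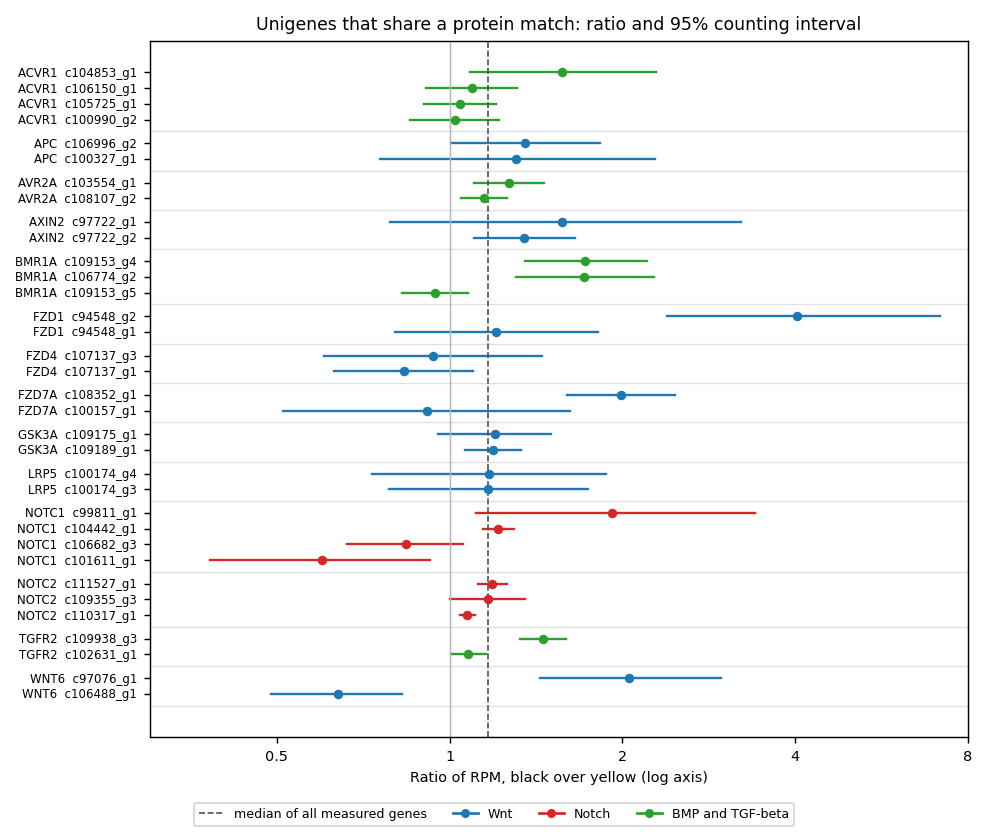
Black over yellow ratio of RPM (log axis) with 95% counting intervals for measured unigenes of genes that hold at least 2 of them, each labelled with gene and unigene. The dashed line is the ratio of all measured genes, 1.17. The unigenes of WNT6 lie on opposite sides of the grey line of equal levels, and those of BMR1A, FZD1, NOTC1, NOTC2 and TGFR2 also include pairs with separate intervals.

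The predicted proteins carried some of the features of their roles. A signal peptide was predicted in 30 of the 95 unigenes and a membrane helix in 40, with helices in 12 of 14 Wnt receptor unigenes and in none of the 11 unigenes of Wnt components inside the cell. Other roles showed them less fully. A signal peptide was predicted in 3 of 8 unigenes of the secreted Wnt ligands and a helix in 6 of them, and a helix in 3 of 10 Notch receptor and 9 of 21 BMP and TGF-beta receptor unigenes. The predicted stretches ran from 99 to 2467 codons with a median of 313, so many are parts of proteins. The deposited annotation placed 78 of the 85 unigenes of the 4 pathways on the KEGG map of their own pathway. It also placed 25 on the melanogenesis map, all of them Wnt ligands, frizzled receptors, dishevelled proteins and GSK3B. The BLASTP match gave the same name as BLASTX for 93 of the 95.

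Further genes of the same pathways that the name rule does not catch were counted at 1.5-fold on the same log2(RPM + 1) scale. Of 20 measured Wnt genes 1 was at least 1.5-fold higher in black skin, where 6.81% of all genes were called, and the median log2 ratio was 0.28. It was CELR1, a cadherin of planar cell polarity, at 56.2 RPM in black skin and 34.6 in yellow, a ratio of 1.62 (1.47 to 1.80). RYK, a Wnt receptor with a kinase-like domain, had a ratio of 1.52 (1.34 to 1.74), and TNKS2, an enzyme that destabilises axin, one of 1.48 (1.23 to 1.77). By their intervals 3 of the 20, KC1G2, TNKS1 and MYCB, lay wholly below the ratio of all genes, as did 20.0% of all genes. Wholly above that ratio lay 5 of the 20, as did 19.0% of all genes. MYCB had a ratio of 1.17 in favour of yellow skin (1.0 to 1.36). Of 17 Notch genes none was 1.5-fold apart on the log2(RPM + 1) scale, where 8.23% of all genes were called. Their median was 0.21. FURIN, a protease that matures the Notch receptor, had a ratio of 1.80 (1.09 to 3.03), KAT2A, a histone acetyltransferase, one of 1.53 (1.21 to 1.95), and MIB1, the ubiquitin ligase that lets ligands be taken up, one of 1.42 (1.19 to 1.69). On the other side, 4 of the 17 intervals (23.5%, against 20.0% of all genes) lay below the ratio of all genes. Above it lay 2 (11.8%, against 19.0%). The 4 were those of LFNG, a glycosyltransferase that modifies Notch, with a ratio of 1.24 in favour of yellow skin (0.945 to 1.64), ADA17, ITCH and CBP.

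In the BMP and TGF-beta pathway, several genes outside the name rule were higher in black skin. Of 15 measured genes, 5 were at least 1.5-fold higher in black skin on the log2(RPM + 1) scale and none in yellow. Of all genes 6.81% and 1.43% were called on these sides. With TMM and with both other totals 3 of the 5 (ID1, ID2 and INHBB) were past 1.5-fold. Of all genes 2.77% to 3.73% were then called on the black side. The median log2 ratio of the 15 was 0.35 beside 0.22 for the members. The difference between these medians was not tested. ID1, an inhibitor of transcription factors that BMP signals switch on in vertebrates, was at 148 RPM in black skin and 77.8 in yellow, a ratio of 1.90 (1.78 to 2.03). ID2, of the same family, was at 15 and 8.11 RPM, a ratio of 1.85 (1.51 to 2.27), while ID4 had one of 1.32 (1.13 to 1.55). INHBB, a subunit of activin, was at 6.00 and 3.13 RPM, a ratio of 1.92 (1.38 to 2.67). The other 2 of the 5 were TSP1, which frees TGF-beta from its latent form, with a ratio of 1.58 (1.38 to 1.82), and PPM1A, a phosphatase that acts on SMAD proteins, with one of 1.58 (1.36 to 1.85). LTBP4, a matrix protein that holds latent TGF-beta, was the only one of the 15 below equal levels, at 62.3 and 69.8 RPM. Of 5 measured Hedgehog genes none was 1.5-fold apart, where 8.23% of all genes were called, with a median of 0.21. GAS1, a co-receptor of Hedgehog ligands, had a ratio of 1.45 (1.09 to 1.95), STK36, a kinase of the pathway, one of 1.26 (1.03 to 1.54), and KAPCA, a catalytic subunit of protein kinase A, one of 1.16 (1.05 to 1.29). KIF7, a kinesin that regulates GLI proteins, lay below the ratio of all genes at 24.2 and 26.8 RPM. The ligand IHH was under the minimum with 11 black and 32 yellow reads, and the Hedgehog-binding protein HHIP with 22 and 10.

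**Figure D4:**
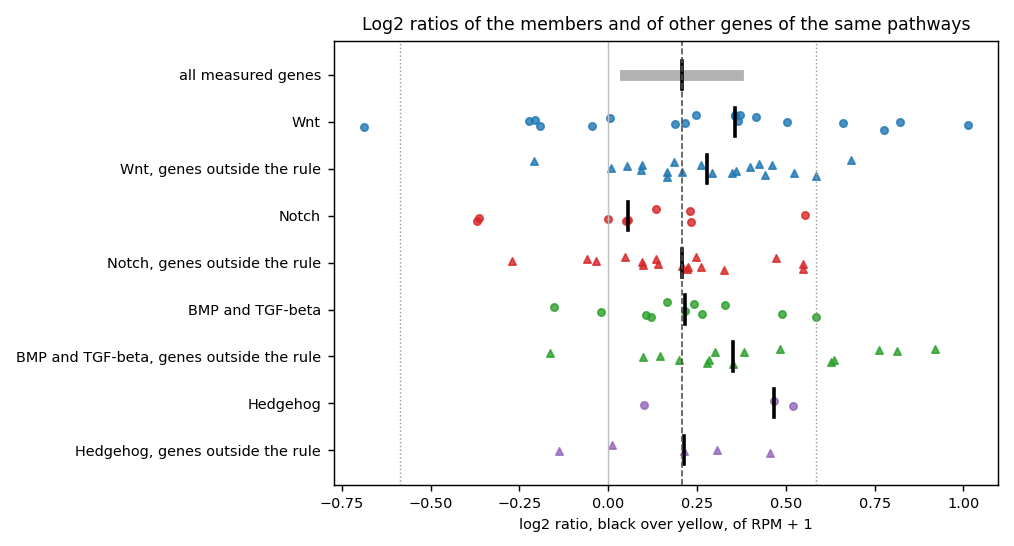
Log2 ratio of black over yellow skin on the log2(RPM + 1) scale for measured members (circles) and for measured genes of the same pathways outside the name rule (triangles), with a black bar at each median. The grey bar spans the quartiles of all 3644 measured genes, the dashed line is their median of 0.21 and the dotted lines mark 1.5-fold. ID1, ID2 and INHBB are the rightmost triangles.

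Markers of the cell types in these skin pieces differed between the libraries as well. Of all measured genes 6.81% were called at 1.5-fold on the log2(RPM + 1) scale on the black side and 1.43% on the yellow side. At 2-fold 0.823% were called on the black side. The 4 melanophore markers found summed to 21.5 RPM in black skin and 1.96 in yellow, and all 3 measured ones were at least 2-fold higher in black. Dermis and scale markers summed to 1585 and 1058 RPM, with 2 of 6 measured at least 1.5-fold higher in black skin, and immune markers to 613 and 471 RPM, with 4 of 10. Xanthophore markers summed to 92.3 and 61.1 RPM, of which CSF1R alone gave 65.3 and 34.8. Of the 4 measured, 2 (CSF1R and SCRB1) were at least 1.5-fold higher in black skin and 1 (GCH1, at 6.78 and 11.7 RPM) in yellow skin. No iridophore marker was found. Epithelial markers, a list that took in all claudins, summed to 2435 and 2008 RPM. Of the 13 measured, 3 were at least 1.5-fold higher in yellow skin, and 6 lay below equal levels. Nerve markers summed to 167 and 144 RPM, with none of 3 at least 1.5-fold apart. Muscle markers summed to 2121 and 2181 RPM, with 1 of 8 measured at least 1.5-fold higher in black skin and 5 below equal levels. Blood and vessel markers summed to 34.5 and 42.9 RPM, with 1 of 3 at least 1.5-fold higher in yellow skin. All 3 lay below equal levels. No marker found was at 0 reads in either library. The part of these cells in the values of SFRP1, FZD1, FZD7A, DVL3, AVR2B, BMP1, ID1, ID2 and INHBB was not tested.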

How the data were processed

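The authors deposited 1 normalised signal per unigene and library, without a named unit. Each unigene was used once, since 4131 of 128781 rows repeat one. The signal then sums to 999612 in black and 999622 in yellow skin and was read as RPM. It was not corrected for length. Whole reads were recovered from its steps (0.0282 RPM per read in black and 0.0261 in yellow), with values whole within 0.1 read for 100% and 99.999198% of unigenes. Unigenes without reads carry the lowest value of their column. Their read number was taken as 0, while their level kept that value in the sums. A floor of 3 reads is 0.0847 and 0.0782 RPM. The deposited annotation gives entries other than measurements and supplied names, E-values and domains. The submitters' processing notes name GRCz11 without a role. Which assembler, aligner and counter were used is not given in the sources used here.

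Unigenes were summed by BLASTX stem. A gene was called at 2-fold or 1.5-fold on log2(RPM + 1). Without replicates no test was run and no p-value is given. Intervals are Clopper-Pearson at 95%, given the summed reads, with mates counted once, which is approximate at low counts. Removal of PCR copies is not described in the labels. Run on the recovered reads, the rule of an interval wholly beyond 1.5-fold called 1 of 50 measured members and 2.39% of all genes. The steps were tested on simulated data. Members, lists and rules were chosen with earlier results of these data known. Every measured member is named, and outside the rule up to 3 genes per list with the largest log2 ratio, with any at least 1.5-fold apart. ID4, LTBP4, IHH, HHIP, KIF7, KC1G2, TNKS1, MYCB, LFNG, ADA17, ITCH, CBP, CSF1R, SCRB1, GCH1 and single unigenes were named after their values were seen. From the pathway lists 11 and from the marker lists 4 other proteins caught by a shared name were taken out. Software was Python 3.11.15 with numpy 2.4.6, pandas 2.3.3, scipy 1.17.1 and matplotlib 3.10.9, and edgeR 4.0.16 in R 4.3.3 for TMM factors.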

Additional observations from a re-analysis of the deposited data

How the results depend on the processing

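Ratios taken from the median of all genes and the interval against the ratio of all genes were chosen after seeing the data, as were the scalings of the genes outside the name rule, and the other alternatives were planned. The median log2 ratio of the measured members (0.23) was 0.047 with TMM scaling, 0.067 with totals without the 2 most abundant unigenes and 0.052 without the 100 most abundant, and in each case within 0.02 of the median of all genes. Reads of those 2 unigenes made up 6.81% of the black library and 17.0% of the yellow one. The count of members at least 2-fold apart (1 of 50 measured, against 0.960% of all genes) was 0 with each of these 3 scalings. Of all genes 0.795%, 0.897% and 1.12% were then called, in the order above. The count was 0 with a pseudocount of 5 (0.302% of all genes) and 2 of 50 with 0.1 (2.36%). With the counting interval wholly beyond 2-fold, and for ratios taken from the median of all genes, it was 0. The shares of all genes under these rules are not given here, so these counts cannot be set against them. The count at 1.5-fold was 7 of 50 measured members, of which 6 higher in black skin, against 8.23% of all genes. It was 5 with each of the 3 scalings (3 higher in black and 2 in yellow), of 50, 51 and 52 measured members. In the same order 5.46%, 6.14% and 6.90% of all genes were called. The count was 13 of 50 measured members with a pseudocount of 0.1 (13.0% of all genes) and 2 of 50 with 5 (2.28%). At a minimum of 5 RPM it was 4 of 35 measured members (6.14% of all genes). The counting interval wholly beyond 1.5-fold called 1 of 50 (2.39% of all genes). For ratios taken from the median of all genes the count was 4 of 50 (2 and 2, against 5.41%). It was 17 of 50 with the interval against the ratio of all genes (39.0% of all genes). The count of genes outside the name rule at 1.5-fold (6, all higher in black skin) was 3 with each of the 3 scalings. On the black side 6.81% of all genes were called, and 2.77%, 3.42% and 3.73% with the 3 scalings. A lower pseudocount lets more low genes pass and a stricter rule or minimum fewer by construction. The sign of the log2 ratio turned for 11 members under at least 1 of the 10 alternatives run on single genes. It turned for none of the 7 at least 1.5-fold apart, but these were picked for large ratios. The scalings lowered the median of all genes from 0.21 to 0.03 at most, too little to turn them. DVL2 had no value by BLASTP match or with a stricter E-value, and AVR2B, DVL2 and DVL3 had none at a minimum of 5 RPM. With the most abundant unigene in place of the sum, FZD1 had a log2 ratio of 0.20, BMR1A one of -0.08 and WNT6 one of -0.56. No paired analysis was possible because there is 1 library per colour. The number of reads limits genes near 1 RPM, such as SMO, AVR2B and DVL2.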
